A study of Homo sapiens with 18 samples.

Results

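The comparison described here is that of HEK293T cells induced to make 102xPR with HEK293T cells induced to make a poly-adenylate construct, 3 libraries against 3, or 6 of the 18 libraries of the series. HEK293T is an established line derived from human embryonic kidney. Stable lines carried 1 of 3 reporters under a Tet-on promoter, namely GFP-P2A-102xPR, GFP-P2A-poly-adenylate or, as the negative control, GFP-P2A-ChFP, and poly(A) RNA was sequenced from uninduced and induced cells. The series asked whether ribosome stalling on poly-adenylate is followed by a transcriptional response like that to stalling on poly-PR, and the 6 libraries set the 2 stalling constructs side by side. Both groups received 500 ng/μl doxycycline, as the label gives the dose, for 48 h, so both carried GFP, the P2A peptide and the inducer, and they differed in the sequence after P2A and in the line itself. The labels do not say whether a line is 1 clone or a pool, nor whether replicates 1 to 3 were separate cultures, so the p-values measure the spread between these libraries, which may be technical. Cells were lysed in detergent with cycloheximide, and RNA was taken from the lysate after a spin. Reads on the reporters were not analysed here.

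Poly-PR, a chain of proline and arginine, is one of the dipeptide repeat proteins made from the C9orf72 expansion, the commonest inherited cause of amyotrophic lateral sclerosis (ALS) and frontotemporal dementia. A translated poly-adenylate stretch codes for polylysine, and ribosomes slow or halt on it as they do on an arginine-rich chain. When a following ribosome runs into a halted one, the ligase ZNF598 marks the pair, the complex of ASCC2, ASCC3 and TRIP4 splits the leading ribosome, and LTN1 with NEMF labels the unfinished chain for degradation, a sequence known as ribosome-associated quality control. Collided ribosomes can also activate GCN2 through GCN1, which phosphorylates eIF2 and raises translation of the transcription factor ATF4 (the integrated stress response), and can activate the kinase ZAK (gene MAP3K20), which signals to JNK and p38.

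The 6 libraries held 19606373 to 23774756 counts with 102xPR and 21244098 to 23512647 with poly-adenylate. After a filter on low counts 15447 of 28394 genes were tested. In a principal component analysis of all 18 libraries, the induced 102xPR libraries lay apart along the first component (57.9%). Along the second component (7.61%) there were 2 unlabelled sets, 1 of 8 libraries and 1 of 10. Induced 102xPR replicates 1 and 2 lay in the set of 8, whereas replicate 3 and all 3 induced poly-adenylate libraries lay in the set of 10, so this division is partly aligned with the comparison. Mitochondrially encoded genes took 5.04% and 4.96% in 102xPR replicates 1 and 2, 3.37% in replicate 3 and 4.92% to 5.20% of counts with poly-adenylate. Within the set of 10, where 102xPR replicate 3 alone stands against the 3 poly-adenylate libraries and is taken to vary like the other groups, 9096 genes passed the test, and 8611 of these were among those of the comparison of all 6. Summed levels of 7 HEK293 markers (VIM, PAX2, LIN28B, NEFM, NEFL, KRT8 and KRT18) were 1043 to 1090 CPM with 102xPR and 896 to 972 CPM with poly-adenylate. All 7 had counts in both groups, but VIM (0.63) and LIN28B (0.16) were higher with 102xPR and PAX2 (-0.66) and NEFM (-0.21) lower. The other 3 did not pass the test. The sum describes these genes and does not by itself identify the cell type. CPM values of single genes are counts divided by library size with TMM factors and put on a common scale. The sums over markers use library totals without those factors.

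Cells induced for 102xPR and for poly-adenylate differed at most of the genes they express. Of 15447 genes, 10691 passed the test (69.2%), 5299 with higher values in the 102xPR cells (34.3%) and 5392 with lower values (34.9%). Past 2-fold, 1204 genes were higher (7.79%) and 854 lower (5.53%), and past 4-fold 323 were higher and 30 lower. The genes that passed had a median absolute difference of 0.55 on the log2 scale, and the median over all genes was -0.02. Differences are log2 fold changes, 102xPR minus poly-adenylate, with the SE of the edgeR quasi-likelihood fit and its Benjamini-Hochberg adjusted p.

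The largest difference among well expressed genes was at INHBE, which encodes a subunit of the secreted factor activin E (Entrez 83729, chromosome 12, 57455307 to 57458025, GRCh38.p14). INHBE stood at 101, 78.9 and 90.0 CPM in the 3 induced 102xPR libraries and at 1.64, 1.15 and 0.92 CPM in the 3 induced poly-adenylate libraries. Every 102xPR library was far above every poly-adenylate library, and the log2 fold change was 6.19 ± 0.14 (edgeR adjusted p = 8.1e-20). ANKRD1, a nuclear ankyrin repeat protein encoded on chromosome 10 (90912096 to 90921087), gave 21.7, 23.1 and 24.8 CPM against 0.327, 0.468 and 0.307 CPM, a log2 fold change of 5.95 ± 0.25 (edgeR adjusted p = 1.2e-14). HSPB8, a small heat shock protein that works with BAG3 in chaperone-assisted autophagy (chromosome 12, 119178931 to 119194746), gave 65.6, 56.7 and 54.7 CPM against 2.62, 1.87 and 1.58 CPM, a log2 fold change of 4.87 ± 0.15 (edgeR adjusted p = 5.2e-17). The groups did not overlap at any of the 3 genes, and their induced poly-adenylate values lay in the range of both uninduced lines or close to it.

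VGF, the precursor of neuroendocrine peptides (chromosome 7, 101162509 to 101169952), stood at 23.4, 24.1 and 25.8 CPM against 1.31, 1.45 and 1.49 CPM, and differed by 4.10 ± 0.12. The chloride channel gene BEST1 stood at 13.97, 12.01 and 13.48 CPM against 0.795, 0.596 and 0.832 CPM, and differed by 4.14 ± 0.21. TCEAL7, a transcription elongation factor A-like gene, stood at 9.96, 8.74 and 7.71 CPM against 0.468, 0.468 and 0.307 CPM, and differed by 4.39 ± 0.26. In these genes too the libraries of a group lay close together compared with the distance between the groups. ROCK1P1 (4.33 ± 0.20) is a transcribed pseudogene of ROCK1, and SNORD68 (3.72 ± 0.22) is a small nucleolar RNA within the gene RPL13, so reads of the related or host gene could be counted there and both values are uncertain.

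Of the 12 highest genes, 5 also passed the test between uninduced and induced cells of the ChFP control line (2.01% of all genes, with 1.13% upward and 0.887% downward), which shares no library with the comparison. The inositol phosphatase gene INPP5D was at 42.9, 25.5 and 21.9 CPM with 102xPR and at 3.23, 1.36 and 1.23 CPM with poly-adenylate, a difference of 3.97 ± 0.48, and it rose by 3.09 ± 0.55 on induction of ChFP. NECTIN4, a cell adhesion molecule, was at 10.6, 7.95 and 8.91 CPM against 1.03, 0.426 and 0.394 CPM, a difference of 3.90 ± 0.26, and rose by 3.47 ± 0.39 on induction of ChFP. GDF15, a stress-induced secreted factor, was at 14.1, 8.24 and 9.50 CPM against 1.17, 0.639 and 0.350 CPM, a difference of 3.89 ± 0.37, beside a rise of 2.31 ± 0.51 with ChFP. PTCHD4, a p53 target with a patched domain, differed by 3.33 ± 0.21, beside a rise of 1.66 ± 0.28 with ChFP. INHBE, the fifth, rose by 1.01 ± 0.24 on ChFP induction. The induced poly-adenylate cells were below the induced ChFP cells at INPP5D (-2.53 ± 0.51), NECTIN4 (-1.86 ± 0.31) and PTCHD4 (-1.15 ± 0.26), each with an edgeR adjusted p under the threshold of 0.05, as for 0.939% of all genes (0.609% higher, 0.33% lower). Between induced 102xPR and induced ChFP, a comparison that shares the 102xPR libraries and in which 66.8% of genes passed (32.9% higher, 33.9% lower), INPP5D, NECTIN4 and PTCHD4 differed by 1.44, 2.03 and 2.18.

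The differences downward were smaller. NEURL1B, a ubiquitin ligase of Notch signalling, stood at 2.70, 2.26 and 2.49 CPM with 102xPR and at 13.9, 13.7 and 12.4 CPM with poly-adenylate, a log2 fold change of -2.42 ± 0.12 (edgeR adjusted p = 5.4e-14). STUM stood at 3.398, 3.56 and 3.48 CPM against 22.1, 16.0 and 16.6 CPM, and differed by -2.38 ± 0.15. CDH1, which encodes E-cadherin (chromosome 16, 68737292 to 68835537), stood at 1.21, 1.00 and 0.498 CPM against 4.44, 4.85 and 4.25 CPM, and differed by -2.30 ± 0.18. At all 3 the groups were separate, and at CDH1 the lowest value was that of 102xPR replicate 3: set against the poly-adenylate libraries of its own library set, that replicate gave -3.17. The same holds for ALDH1A1, a retinaldehyde dehydrogenase, at -1.97 ± 0.20 over the 6 libraries and -2.69 within the set of 10. Among the rest of the 12 lowest were the small GTPase RAB26, the potassium channel subunit gene KCNAB2, the red cell adhesion molecule ICAM4, SH2D5, the peptide hormone gene APLN, C1QL4 and the parvin PARVG, between -1.92 and -2.06.

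**Figure D1:**
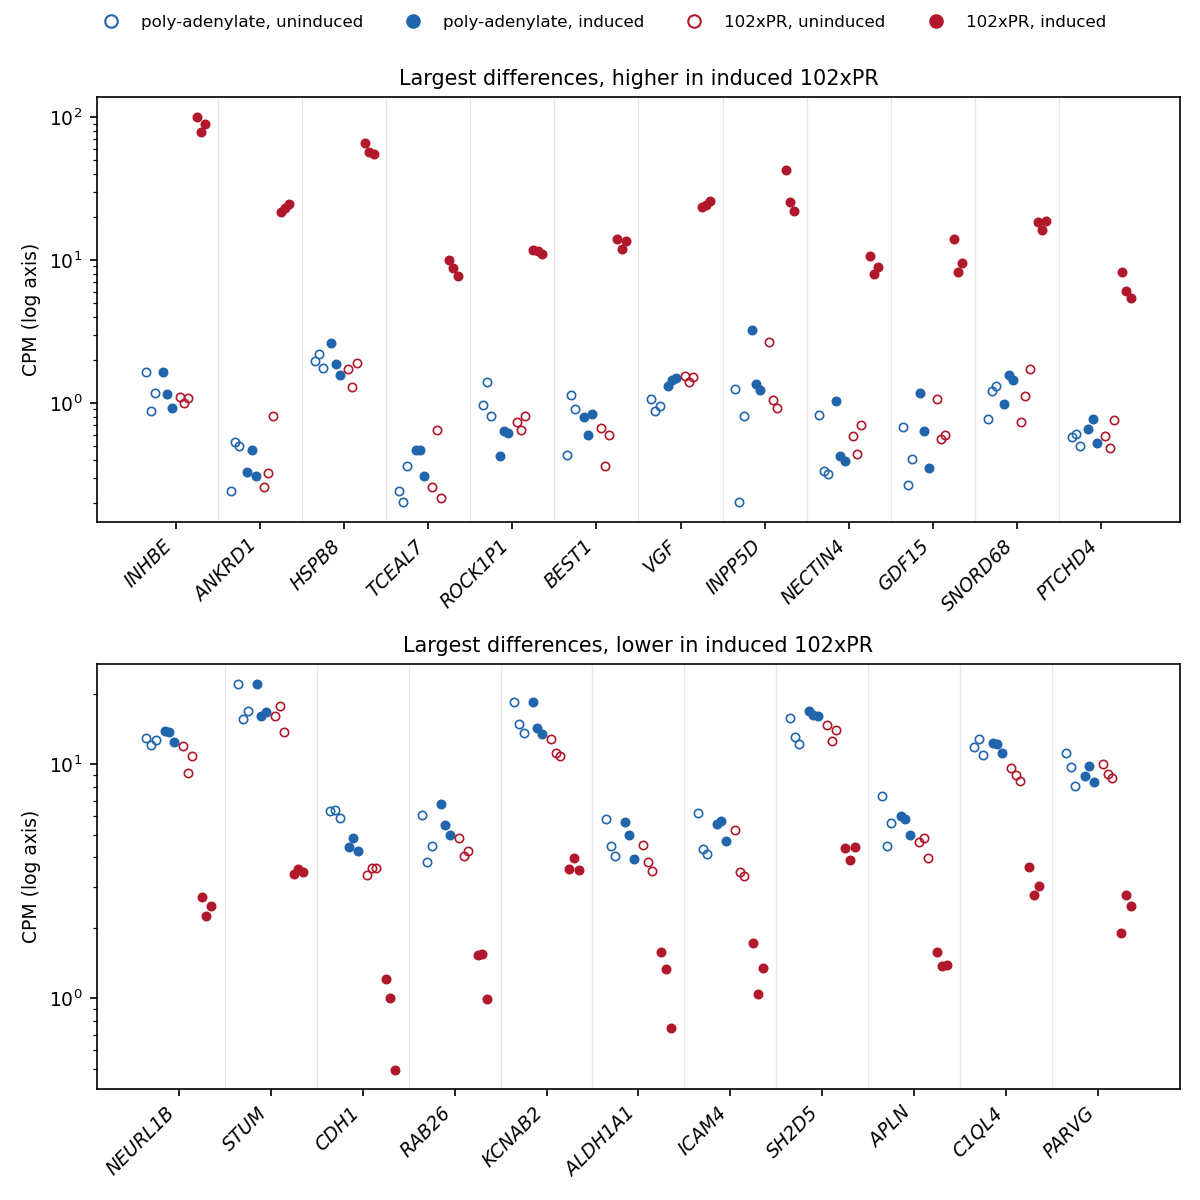
CPM in each library (log axis) of the genes with the largest difference between induced 102xPR and induced poly-adenylate cells; each point is 1 library, filled when induced and open when uninduced. The filled red points (102xPR, induced) stand apart from the other 3 groups at every gene, upward in the upper panel and downward in the lower one.

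The lines themselves differed before induction, but much less. Between the uninduced 102xPR and uninduced poly-adenylate cells 1208 genes passed the test (7.82%), 657 higher (4.25%) and 551 lower (3.57%), with 22 past 2-fold and a median absolute difference of 0.28 among them. The induced and the uninduced comparison share no library, and 543 genes passed in both in the same direction, which is 5.08% of the induced calls and 44.95% of the uninduced calls. A further 378 genes passed in both in opposite directions, which is 31.3% of the uninduced calls. In the induced comparison the alignment with the library sets was reversed, with 2 of the 3 102xPR libraries in the set of 8. Its part in these reversals was not tested. Of the 2058 genes past 2-fold in the induced comparison, 114 (5.54%) had passed in the same direction without doxycycline. The count of uninduced calls rests on single libraries: without uninduced poly-adenylate replicate 2 it was 335, and without replicate 1 it was 2153. In the fit with a term for the library set 712 genes passed, and 487 of these were among the 1208.

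For some genes the difference between the lines was as large without doxycycline as with it. SEPTIN4, a septin gene, was 0.85 ± 0.15 lower in the 102xPR line uninduced and 0.76 ± 0.16 lower induced, and the 2 differences were not told apart (0.09 ± 0.22, edgeR adjusted p = 0.74). The potassium channel gene KCNN3 (-0.92 ± 0.22 uninduced, -0.95 ± 0.23 induced) and the dynein intermediate chain gene DYNC1I1 (-0.77 ± 0.16 and -0.81 ± 0.17) were alike in this. NOXO1, an organizer of an NADPH oxidase, was 0.87 ± 0.12 higher uninduced and 0.41 ± 0.11 higher induced, and the change of difference passed the test (-0.46 ± 0.16, edgeR adjusted p = 0.020). SERTAD1, PARD6A, SLC5A10 and CARD8-AS1 were between 0.66 and 0.81 higher uninduced and between 1.00 and 1.36 higher induced. CARD8-AS1 is antisense to CARD8, and with the strand setting of the counting not given in the sources used here its reads cannot be told from those of its partner.

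**Figure D2:**
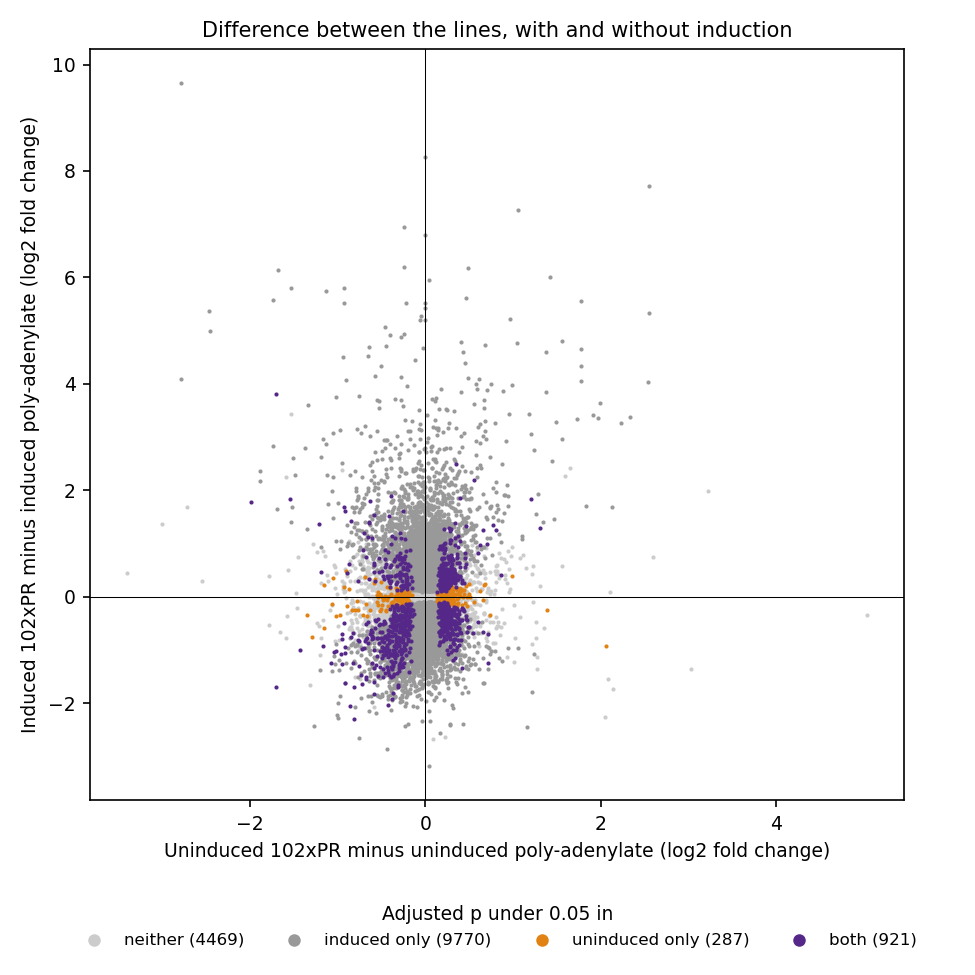
Log2 fold change between the 102xPR and the poly-adenylate line for each of the 15447 genes tested, uninduced (horizontal) and induced (vertical); colour marks the comparison in which the edgeR adjusted p was under 0.05. Most genes lie in a narrow upright band, with differences far larger on the vertical than on the horizontal axis, and 921 genes passed in both.

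Subtracting the uninduced difference from the induced one gives the difference between the lines' responses to doxycycline. It passed the test at 9022 genes (58.4%), 4457 higher (28.9%) and 4565 lower (29.6%), with a median SE of 0.12. On its own, induction was followed by calls at 10391 genes in the 102xPR line (67.3%, with 33.8% upward and 33.4% downward) and at 167 genes in the poly-adenylate line (1.08%), 126 upward (0.816%) and 41 downward (0.265%), of which 3 were past 2-fold. Of the 167 genes, 45 also passed in the 102xPR line in the same direction and 89 in the opposite direction. At 130 of the 167 the difference of the responses passed. The larger library set held all 3 uninduced 102xPR libraries but 1 induced one, and 1 uninduced poly-adenylate library but all 3 induced ones. In the fit with a term for the library set the difference of responses passed at 7414 genes, 6691 of them among the 9022. The part of the library sets in the 89 opposite responses was not tested.

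The genes named from those opposite responses carry moderate changes in the poly-adenylate line. CTH, cystathionine gamma-lyase of the pathway that makes cysteine, stood at 21.6, 20.4 and 18.4 CPM in uninduced poly-adenylate cells and at 16.3, 14.2 and 14.3 CPM in induced ones, whereas in the 102xPR line it went from 13.6, 13.5 and 11.5 CPM to 51.9, 52.3 and 51.8 CPM. The 2 lines moved apart without overlap in either: the responses were -0.43 ± 0.09 and 2.01, and the induced lines differed by 1.80 ± 0.08. SESN2, a stress-induced regulator of mTORC1, fell by 0.38 on the log2 scale in the poly-adenylate line and rose by 1.54 in the 102xPR line. SDF2L1, a co-chaperone of the endoplasmic reticulum, did the reverse, from 90.2, 74.8 and 80.7 CPM to 107, 112 and 104 CPM with poly-adenylate and from 100, 96.9 and 95.9 CPM to 35.0, 36.5 and 41.0 CPM with 102xPR. The MAP kinase phosphatase gene DUSP9, the mitochondrial endonuclease gene ENDOG and MAFK, a small Maf transcription factor, likewise rose by 0.42 to 0.76 with poly-adenylate and were lower with 102xPR. HOXA4 and TXNIP, a regulator of glucose uptake, fell by 0.40 to 0.51 with poly-adenylate and were higher with 102xPR. Uninduced poly-adenylate replicate 1 lies in the library set of the 3 induced poly-adenylate libraries, and replicates 2 and 3 lie in the other.

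Genes of ribosome-associated quality control were mostly higher in the 102xPR cells. Of 38 genes tested, 24 were higher (63.2%), 7 lower (18.4%) and 7 did not pass, with a median of 0.20 against -0.02 over all genes. Over all genes 34.3% were higher and 34.9% lower, and the list counts below stand beside these shares. In the uninduced comparison 3 of the 38 passed, beside 7.82% of all genes. None passed between uninduced and induced cells of the poly-adenylate line, where 1.08% of all genes did. SKIV2L was listed but did not pass the filter on low counts, so its expression is not described here.

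The clearest group was that of ribosome splitting and rescue, where 10 of 11 genes were higher and 1 was lower, with a median of 0.52. ASCC3, the helicase that pulls the leading collided ribosome apart, stood at 170, 157 and 152 CPM against 92.7, 88.0 and 93.5 CPM, which are separate ranges, and differed by 0.81 ± 0.06 (edgeR adjusted p = 7.3e-11). Its partners ASCC2 (0.64 ± 0.05), TRIP4 (0.53 ± 0.07) and ASCC1 (0.25 ± 0.06) were higher as well. So were the rescue GTPase genes HBS1L (0.52), GTPBP1 (0.59) and GTPBP2 (0.18), PELO, which enters an empty ribosomal site (0.20), and the recycling ATPase ABCE1 (0.43). GIGYF2, which represses initiation on messages with collided ribosomes, was higher by 0.64, and EIF4E2, the cap-binding partner through which it acts, was the 1 member that was lower (-0.25 ± 0.05). GTPBP2 did not pass within the set of 10 libraries (0.14, adjusted p = 0.087).

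Among 14 collision sensors and ubiquitin ligases, 8 were higher (57.1%), 3 lower (21.4%) and 3 did not pass. CNOT4, a ligase of the CCR4-NOT deadenylase complex, showed the largest difference of the whole list: 152, 146 and 118 CPM with 102xPR against 38.3, 36.5 and 39.5 CPM with poly-adenylate, or 1.87 ± 0.11 (edgeR adjusted p = 6.6e-11). RNF25, a ligase for ribosomes stalled with a trapped factor, stood at 66.0, 68.9 and 62.2 CPM against 26.0, 26.8 and 26.8 CPM, or 1.31 ± 0.06, and its partner RNF14 differed by 0.52. At both genes the groups were well separated. ZNF598, the ligase that recognizes collided ribosomes, stood at 180, 193 and 187 CPM against 166, 185 and 176 CPM, which are overlapping ranges, and did not pass (0.09 ± 0.05, edgeR adjusted p = 0.13), although it passed with scaling by library totals (0.11) and with a minimum count of 50 (0.12). The collision sensor kinase gene MAP3K20 (-0.04) and RACK1, the ribosomal scaffold of ZNF598 (0.01), did not pass either. EDF1, which binds collided ribosomes, was lower by 0.15 but did not pass without 102xPR replicate 3 (-0.12) or without poly-adenylate replicate 2 (-0.13). UBE2N, which makes the ubiquitin chains, was lower by 0.15, and the deubiquitinase gene OTUD3 was lower at 40.5, 45.1 and 47.1 CPM against 72.7, 76.2 and 78.4 CPM (-0.78 ± 0.06). GCN1, which links collisions to GCN2, was higher by 0.18, and the deubiquitinase genes USP10 and USP21 by 0.59 and 0.51.

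Of 9 genes that clear the unfinished chain, 4 were higher (44.4%), 2 lower (22.2%) and 3 did not pass. NEMF, which adds alanine tails, stood at 72.2, 80.5 and 68.1 CPM against 50.3, 54.1 and 56.2 CPM, which are separate ranges, and differed by 0.46 ± 0.06. LTN1, the ligase that acts with it, differed by 0.33, and RCHY1, a ligase for alanine-tailed chains, by 0.68. TCF25, another subunit of the LTN1 complex, was lower (-0.39 ± 0.07), and so was VCP, the ATPase that extracts the chain (-0.22 ± 0.05), although both were higher in the 102xPR line before induction (0.25 and 0.26). Of 4 decay genes the exonuclease gene XRN1 (0.60) and the endonuclease gene N4BP2 (0.23) were higher, WDR61 of the SKI complex was lower (-0.28), and TTC37 of the same complex did not pass (0.11). VCP, UFD1, UBE2N and UBE2D3 did not pass within the set of 10, where their values were -0.10, 0.08, -0.14 and 0.12. UFD1 also lost its call without 102xPR replicate 2 (0.14) or poly-adenylate replicate 1 (0.15), N4BP2 lost it without 102xPR replicate 1 (0.17), and TTC37 gained one without poly-adenylate replicate 3 (0.14).

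**Figure D3:**
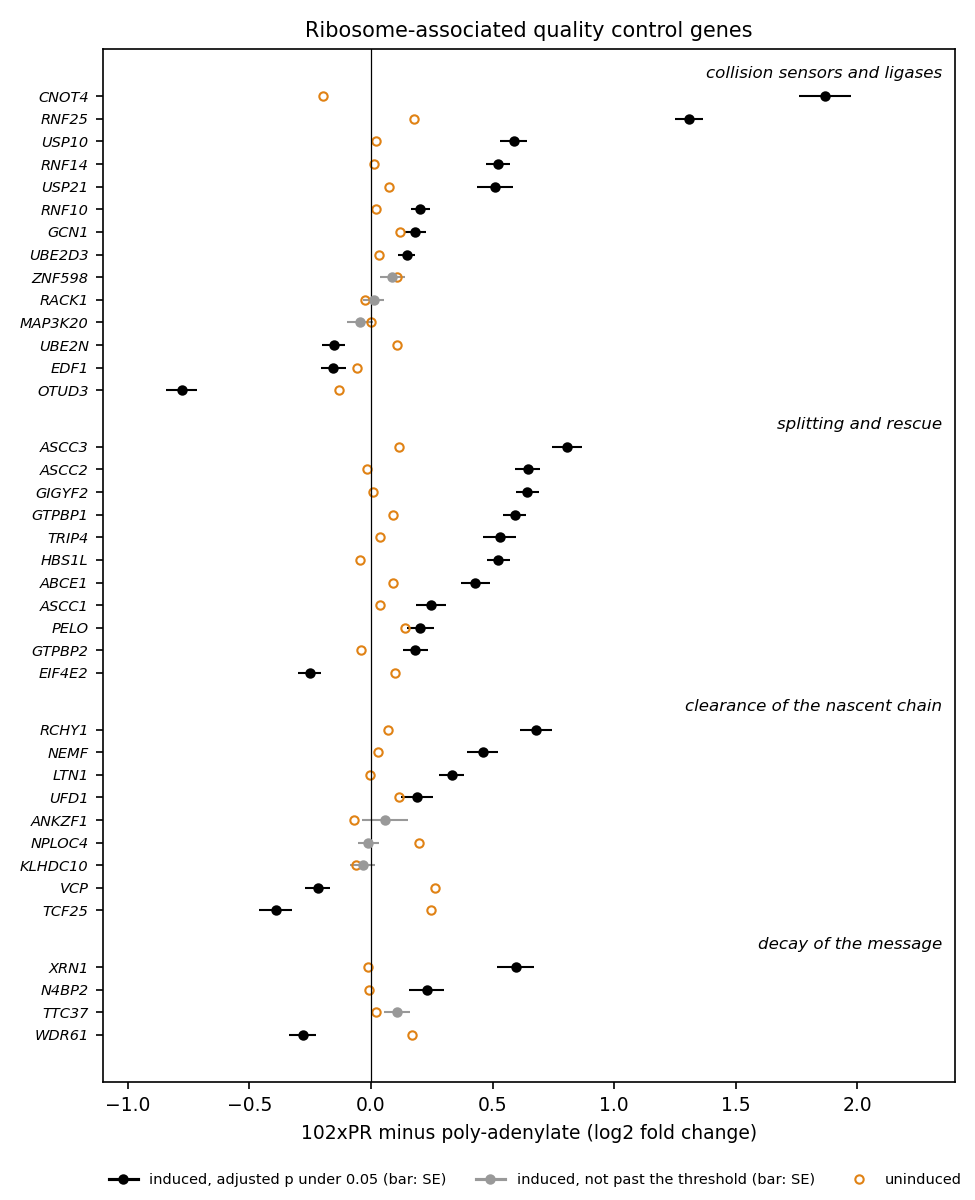
Log2 fold change of 38 ribosome-associated quality control genes between the 102xPR and the poly-adenylate line, by role, induced (filled, bar 1 SE, black where the edgeR adjusted p was under 0.05) and uninduced (open orange). The uninduced values lie near 0, and in the splitting and rescue group 10 of 11 induced values lie to the right.

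The integrated stress response separated the constructs in its transcription factors and secreted products and much less in its amino acid genes. Of 48 genes tested, 28 were higher in the induced 102xPR cells, 11 lower and 9 did not pass, with a median of 0.36. All 7 transcription factors and all 5 secreted factors were higher. Of 19 genes of amino acid supply 8 were higher (42.1%) and 7 lower (36.8%), with a median of -0.03. These shares stand beside 34.3% and 34.9% of all genes.

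ATF4 itself stood at 1019, 1022 and 976 CPM in the 102xPR libraries and at 693, 695 and 674 CPM in the poly-adenylate libraries. These ranges were separate and the difference was 0.55 ± 0.06. ATF3, which ATF4 induces, stood at 295, 271 and 303 CPM against 45.6, 33.6 and 34.1 CPM (2.94 ± 0.20), and DDIT3, which encodes the transcription factor CHOP, at 26.4, 28.4 and 30.9 CPM against 8.93, 6.85 and 7.23 CPM (1.90 ± 0.15). NUPR1 (3.12), ATF5 (1.07), CEBPG (0.68) and CEBPB (0.39) made up the rest of the factors, all with groups that did not overlap. PPP1R15A, the phosphatase subunit GADD34 that reverses eIF2 phosphorylation, stood at 190, 182 and 167 CPM against 25.6, 21.7 and 21.9 CPM (2.96 ± 0.09), whereas its constitutive counterpart PPP1R15B did not pass (-0.11). Of the eIF2 kinase genes EIF2AK2 (0.36) and EIF2AK3 (0.18) were higher, EIF2AK4, which encodes GCN2, was lower (-0.25), and EIF2AK1 did not pass (-0.09).

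Among the secreted factors, FGF21 was at 7.54, 7.87 and 7.61 CPM with 102xPR and, on 7 counts in all, at 0.187, 0.0851 and 0.0438 CPM with poly-adenylate (6.13 ± 0.30). ADM2 stood at 8.19, 7.91 and 9.70 CPM against 2.81, 2.60 and 1.80 CPM (1.84 ± 0.18), and VEGFA differed by 0.99 ± 0.07; INHBE and GDF15, described above, complete the 5. Among genes of amino acid supply, SLC3A2, the heavy chain shared by several amino acid transporters (1.83 ± 0.07), CTH and the asparagine synthetase gene ASNS (0.60 ± 0.09) were higher. The proline synthesis gene PYCR1 stood at 113, 114 and 133 CPM against 241, 233 and 223 CPM (-0.95 ± 0.07), and the arginine transporter gene SLC7A3 (-1.07 ± 0.13), the leucine transporter gene SLC7A5 (-0.49) and the serine and folate genes PHGDH, PSAT1 and MTHFD2 (-0.27 to -0.31) were lower too.

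The direction of this list before induction was the opposite. In the uninduced comparison 1 of the 48 genes was higher and 20 were lower in the 102xPR line, with a median of -0.26. Over all genes 657 were higher (4.25%) and 551 lower (3.57%). SLC7A11, a cystine transporter gene, shows the crossing: uninduced poly-adenylate cells held 45.3, 48.4 and 43.9 CPM and uninduced 102xPR cells 18.2, 21.5 and 20.6 CPM, and after induction the values were 21.5, 24.7 and 24.9 CPM and 31.6, 33.0 and 33.9 CPM. The poly-adenylate libraries were above the 102xPR libraries without doxycycline and below them with it (-1.19 and 0.47). CHAC1, a glutathione-degrading enzyme, was lower by 1.99 uninduced and higher by 1.79 induced, though uninduced poly-adenylate replicate 1 (35.7 CPM) stood apart from replicates 2 and 3 (15.01 and 12.2 CPM). The lower uninduced values were found with 17 to 22 genes lower in the alternatives run for this count. These were a term for the library set, the larger library set alone, and leaving out each uninduced poly-adenylate library in turn. Each induced 102xPR library was also left out, but those libraries are not part of the uninduced comparison. Other scalings and filters, DESeq2 and leaving out uninduced 102xPR libraries were not checked for this count.

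Induction moved this list in different directions in the lines. In the poly-adenylate line 14 of the 48 genes fell and none rose, beside 0.265% and 0.816% of all genes. Among those that fell were ATF4 (-0.27), CEBPG (-0.23), ASNS (-0.38), SLC6A9 (-0.53) and SESN2. In the 102xPR line 30 rose and 12 fell, beside 33.8% and 33.4% of all genes. The difference of responses passed for 36 genes, 30 of them higher in the 102xPR line. Over all genes it passed for 58.4%, with 28.9% higher. The number of these calls depends on the libraries: 0 genes passed as lower without uninduced poly-adenylate replicate 2, 5 without replicate 3, 9 without induced 102xPR replicate 2 and 7 in the fit with a term for the library set. The median response was -0.19, -0.24, -0.19 and -0.20 in those fits, against -0.19 with all libraries.

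**Figure D4:**
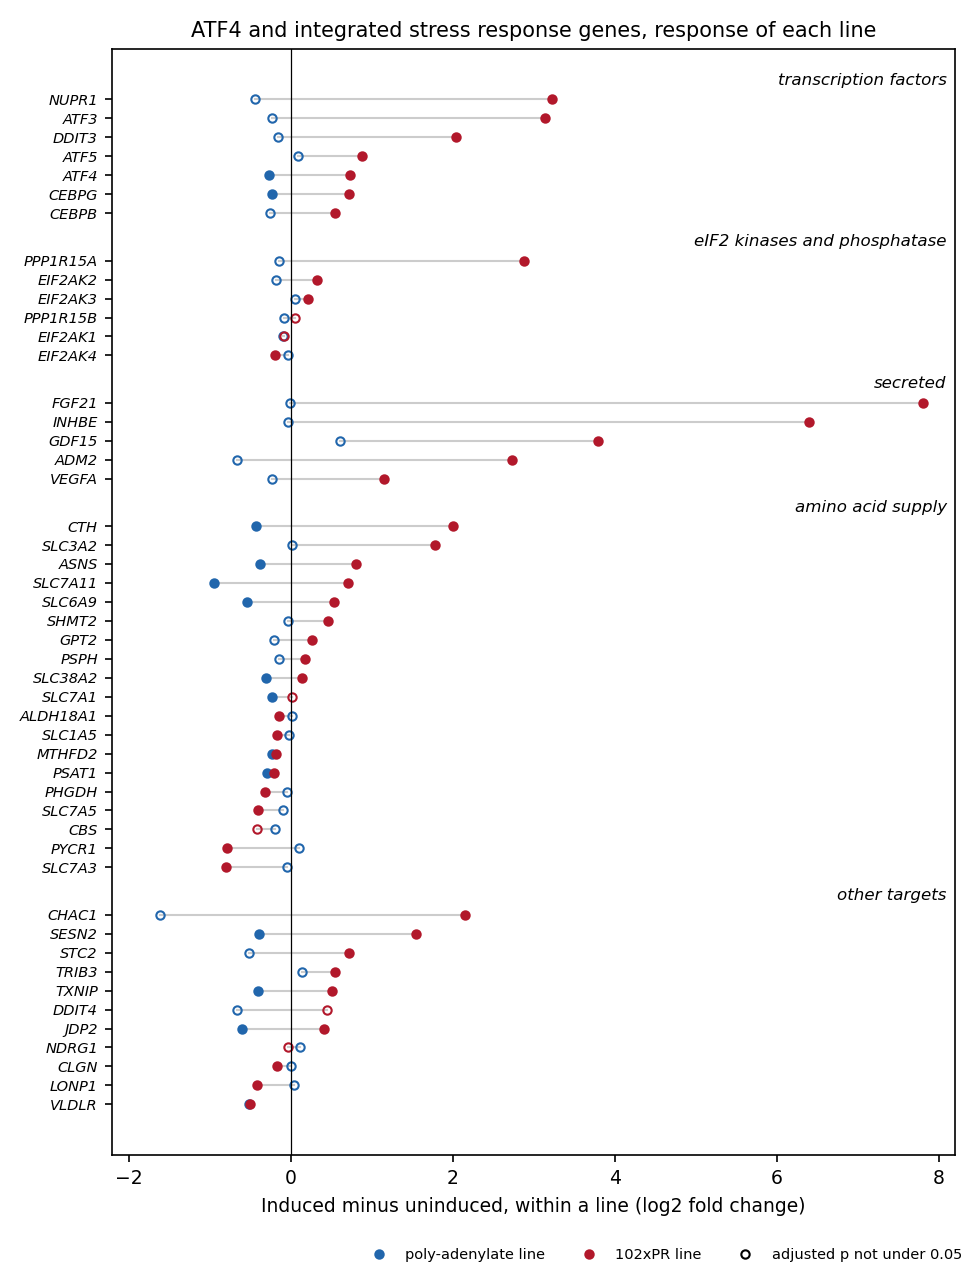
Response of 48 integrated stress response genes to induction (log2 fold change, induced minus uninduced) in the poly-adenylate line (blue) and the 102xPR line (red), by role; filled points passed the edgeR test at an adjusted p under 0.05. Blue points lie close to or left of 0 apart from GDF15 (0.61, not passed), while red points lie right of 0 for all transcription factors and secreted factors and on both sides for amino acid supply.

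ATF4 binds, as a dimer with a C/EBP protein, a composite element of the form TGATGNAAN, in which N is any base. Promoter stretches that hold it are shown for 4 genes of the list, since the difference between the constructs was large at 3 of them and ASNS is a standard ATF4 target; capitals mark the match, on either strand, and sequences are from RefSeq (GRCh38.p14), 5′ to 3′ on the strand of the gene.
FGF21 (chr19:48755439-48755507, plus strand): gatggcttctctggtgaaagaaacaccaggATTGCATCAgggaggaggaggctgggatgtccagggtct
CHAC1 (chr15:40953231-40953299, plus strand): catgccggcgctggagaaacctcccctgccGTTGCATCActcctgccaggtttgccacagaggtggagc
ATF3 (chr1:212565186-212565254, plus strand): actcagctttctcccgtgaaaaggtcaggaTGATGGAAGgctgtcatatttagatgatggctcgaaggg
ASNS (chr7:97872438-97872506, minus strand): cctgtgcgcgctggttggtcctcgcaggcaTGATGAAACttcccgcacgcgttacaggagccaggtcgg
The match begins 55 bases before the annotated start in FGF21, 210 before it in CHAC1, 191 before it in ATF3 and 68 before it in ASNS. A window from 250 bases before to 50 bases after the start was searched, and 3.67% of all 27305 promoters in the table held the element, as did 194 of the 12083 tested genes with an entry (1.61%). Promoter entries matched 37 of the 48 genes, under the share of 80% set for a comparison over a list, and 7 of the 37 held the element: the 4 shown, SLC3A2, and PPP1R15B and SLC7A1, which did not pass. A match describes letters only.

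Genes of the cytosolic aminoacyl-tRNA synthetases, which load amino acids onto tRNA, were higher in 15 of 19 cases, lower in 1 (QARS1, -0.33) and did not pass in 3, with a median of 0.35. Without poly-adenylate replicate 2 the lower count was 2. CARS1, the cysteine enzyme, stood at 4.93, 4.35 and 4.63 CPM against 2.57, 1.96 and 1.97 CPM and differed by 1.10 ± 0.24. FARSB, a subunit of the phenylalanine enzyme, stood at 280, 291 and 266 CPM against 135, 147 and 148 CPM and differed by 0.96 ± 0.06. Both pairs of ranges were separate, as were those of GARS1 (0.77), TARS1 (0.55), SARS1 (0.52) and RARS1 (0.48). The enzyme genes for alanine (AARS1, 0.06), histidine (HARS1, -0.03) and glutamate with proline (EPRS1, -0.13) did not pass. Of the 19, 16 had a promoter entry and 6 of these (37.5%) held the composite element; these genes were chosen for display after their values were seen.
CARS1 (chr11:3057418-3057456, minus strand): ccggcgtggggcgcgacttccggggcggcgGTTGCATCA
IARS1 (chr9:92293698-92293741, minus strand): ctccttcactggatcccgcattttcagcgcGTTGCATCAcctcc
MARS1 (chr12:57488033-57488071, plus strand): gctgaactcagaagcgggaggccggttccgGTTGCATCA
TARS1 (chr5:33440936-33440974, plus strand): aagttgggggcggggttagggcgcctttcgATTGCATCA
NARS1 (chr18:57621814-57621852, minus strand): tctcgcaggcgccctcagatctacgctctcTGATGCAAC
AARS1 (chr16:70289656-70289724, minus strand): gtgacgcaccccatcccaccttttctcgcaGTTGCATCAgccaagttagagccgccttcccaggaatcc
In 5 of the 6 the match lies near the annotated start, beginning between 14 bases before it (IARS1) and 15 bases after it (NARS1), and in AARS1 it begins 188 bases before. CARS1, IARS1, MARS1, TARS1, NARS1 and AARS1 differed by 1.10, 0.30, 0.24, 0.55, 0.15 and 0.06, so the element was found both in the gene with the largest difference of the list and in 1 that did not pass.

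Endoplasmic reticulum genes moved the other way. Of 26 genes of the unfolded protein response, 22 were lower in the 102xPR cells, 3 higher and 1 did not pass, with a median of -0.36, and all 16 chaperones and folding enzymes were lower. The disulfide isomerase gene PDIA4 stood at 166, 160 and 157 CPM against 288, 277 and 279 CPM (-0.80 ± 0.04), and HYOU1 at 109, 107 and 101 CPM against 186, 170 and 175 CPM (-0.75 ± 0.05). HSPA5, which encodes the chaperone BiP, was lower by 0.51 ± 0.05. The groups were separate at each of these genes. Of 4 sensors and transcription factors ERN1 (-0.38) and CREB3L2 (-0.52) were lower and ATF6 and XBP1 were higher: XBP1 stood at 252, 237 and 234 CPM against 146, 137 and 136 CPM (0.79 ± 0.05), and ATF6 differed by 0.70 ± 0.05. Induction of poly-adenylate moved 2 of the 26 genes, SDF2L1 upward and HERPUD1 downward, beside 1.08% of all genes.

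In the cytosol 10 of 20 heat shock genes tested were lower, 4 higher and 6 did not pass, with a median of -0.19. The inducible genes HSPA1A and HSPA1B, and CRYAB, were listed but did not pass the filter on low counts, so the list does not cover them. DNAJB1 stood at 104, 96.8 and 104 CPM against 153, 162 and 169 CPM (-0.67 ± 0.07), and HSPA8, FKBP4, AHSA1 and both HSP90 genes were lower as well. HSPB8, described above, and the transcription factor gene HSF1 (0.43 ± 0.05) were among the 4 that were higher. Without induction 8 of the 20 were higher in the 102xPR line and none lower, at most by 0.50 (HSPA8). Over all genes 4.25% were higher and 3.57% lower without induction.

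Of 25 genes of cholesterol synthesis and uptake 22 were lower, 1 was higher (GGPS1, 0.58) and 2 did not pass, with a median of -0.74. DHCR7, the last step of the pathway, stood at 70.8, 74.4 and 81.3 CPM against 181, 164 and 167 CPM (-1.18 ± 0.06). INSIG1, a regulator of sterol sensing, was lower by 1.66. Of 27 genes of glycolysis and hypoxia 21 were lower, 3 higher and 3 did not pass, with a median of -0.43. PFKP, a phosphofructokinase, stood at 33.8, 37.8 and 39.4 CPM against 114, 99.2 and 101 CPM (-1.50 ± 0.06), and the lactate exporter gene SLC16A3 was an exception at 3.03, 2.26 and 3.83 CPM against 0.655, 0.766 and 0.701 CPM (2.08 ± 0.25).

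Of 24 targets of the oxidative stress factor NRF2, 16 were lower, 4 higher and 4 did not pass, with a median of -0.28. The 4 were OSGIN1 (3.19 ± 0.32), HMOX1, which encodes heme oxygenase (1.27 ± 0.11), SLC7A11 and NFE2L2, the gene of NRF2 itself (0.28 ± 0.06). SLC7A11 and HMOX1 are also known to respond to other stress pathways, and SLC7A11 is on the ATF4 list. The part of those pathways in these differences was not tested. SLC7A11 lost its call in the fit with a term for the library set (0.39, adjusted p = 0.094) and without induced poly-adenylate replicate 1 (0.40, adjusted p = 0.066).

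Of 24 p53 targets 18 were higher, 1 lower (CCNG1, -0.29) and 5 did not pass, with a median of 0.60. GADD45A, which acts in growth arrest, stood at 78.0, 69.5 and 70.3 CPM against 23.3, 18.05 and 17.8 CPM (1.88 ± 0.11), and the cell cycle inhibitor gene CDKN1A differed by 1.28 ± 0.27. The apoptosis genes BAX (0.00) and BBC3 (0.01) were among those that did not pass. HEK293T cells carry a viral antigen that binds p53, and the part of p53 in these differences was not tested. PMAIP1, another apoptosis gene, which ATF4 also induces, was higher by 1.08 ± 0.06.

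Of 32 immediate early genes 20 were higher, 6 lower and 6 did not pass, with a median of 0.84. JUN stood at 496, 452 and 436 CPM against 282, 228 and 231 CPM (0.90 ± 0.10), FOSL1 differed by 2.14 ± 0.18, and FOS, with a wide spread, did not pass (0.80 ± 0.42). The cytokine gene LIF stood at 19.3, 16.1 and 15.7 CPM against 2.34, 1.58 and 1.40 CPM (3.27 ± 0.18), beside a rise of 1.98 ± 0.22 on induction of ChFP. DUSP1, a phosphatase that turns off p38 and JNK, stood at 107, 108 and 103 CPM against 31.9, 30.2 and 26.2 CPM (1.85 ± 0.08). MYC was lower at 79.0, 94.9 and 84.9 CPM against 161, 167 and 175 CPM (-0.96 ± 0.11), and JUNB (-0.36) and NR4A1 (-0.47) were lower as well.

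Of 71 ribosome biogenesis factors 48 were higher in the 102xPR cells, 8 lower and 15 did not pass, with a median of 0.32. The lower count was 5 without 102xPR replicate 1, without poly-adenylate replicate 3 and within the set of 10. TAF1D, a subunit of the RNA polymerase I factor SL1, stood at 69.7, 68.6 and 72.8 CPM against 32.0, 33.1 and 34.2 CPM (1.09 ± 0.05), and NOB1, which cleaves the precursor of 18S RNA, at 223, 245 and 215 CPM against 114, 112 and 115 CPM (1.00 ± 0.05). Of 78 ribosomal protein genes 5 were higher, 35 lower and 38 did not pass, with a median of -0.11 and RPS25 as an example (-0.49 ± 0.06). These genes have many processed pseudogenes to which reads can be assigned, and RPS9 had an SE of 1.44. Of the 5 higher ones, 4 (RPL36, RPL11, RPL35 and RPL6) did not pass within the set of 10 libraries. The higher count was 3 without 102xPR replicate 1 or 2 or without any 1 poly-adenylate library, and RPL36 lost its call without any 1 of 5 libraries in turn (0.07 to 0.11).

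Of 18 nonsense-mediated decay factors 16 were higher, 1 lower (EIF4A3, -0.42) and 1 did not pass, with a median of 0.32. SMG9 stood at 86.6, 82.9 and 81.1 CPM against 38.4, 34.2 and 34.3 CPM (1.23 ± 0.06). Among 20 noncoding hosts of small nucleolar RNAs, whose spliced transcripts are known substrates of that decay, 11 were higher (55%), 7 lower (35%) and 2 did not pass. Values ran from -0.94 at SNHG19 to 2.13 at SNHG15. SNHG15 stood at 165, 160 and 200 CPM against 38.0, 41.0 and 41.2 CPM, SNHG17 at 106, 107 and 117 CPM against 25.4, 25.8 and 28.0 CPM, and GAS5 differed by 1.48 ± 0.10. The groups were separate at each of these. Of 46 translation factors 22 were higher (47.8%), 9 lower (19.6%) and 15 did not pass, beside 34.3% higher and 34.9% lower over all genes. EIF3D (0.89 ± 0.05) and EIF5A (-0.67 ± 0.05) stood at the ends among those that passed.

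Of 74 nuclear encoded respiratory chain subunits 42 were lower, 7 higher and 25 did not pass, with a median of -0.20. Of the 13 mitochondrially encoded mRNAs 1 passed, COX3, at 6484, 6558 and 4406 CPM against 7611, 8195 and 7861 CPM (-0.44 ± 0.18, edgeR adjusted p = 0.041), and 102xPR replicate 3 was the lowest of the 6. The call at COX3 was lost without that replicate (-0.27, adjusted p = 0.17) and without any 1 of the poly-adenylate replicates 1 to 3 (-0.47, -0.41 and -0.45). In the fit with a term for the library set all 13 were lower, and COX3 differed by -0.82; within the set of 10 it differed by -0.84. The share of mitochondrial counts also moved with the library sets, as given above.

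Of cell cycle genes, the 43 of G2/M and mitosis held 28 higher, 4 lower and 11 that did not pass, with a median of 0.26. The 44 of G1/S held 16 higher (36.4%) and 18 lower (40.9%), near the 34.3% and 34.9% of all genes. The lower count of G2/M was 2 without 102xPR replicate 1 and under either other scaling. TPX2, a spindle factor, differed by 0.82 ± 0.10 and the mitotic kinase gene PLK1 by 0.54 ± 0.06, and at G1/S CCNE1 was lower at 18.8, 19.5 and 19.1 CPM against 30.8, 34.2 and 34.1 CPM (-0.79 ± 0.06). Of 17 replication-dependent histone genes tested 11 were higher and none lower, with a median of 0.70. Their messages carry no poly(A) tail as a rule and the libraries were poly(A)-selected, so the counts rest on a minor form; with a minimum count of 50, which tests fewer genes, and within the set of 10 libraries, 5 were higher. In bulk RNA, more cells in a phase and more RNA per cell cannot be told apart.

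Of 25 genes linked to ALS and frontotemporal dementia 9 were higher, 9 lower and 7 did not pass, with a median of 0.01. That is 36.0% each way, near the 34.3% and 34.9% of all genes. ATXN2, which also marks stress granules, stood at 107, 98.9 and 79.9 CPM against 48.7, 51.6 and 49.8 CPM (0.93 ± 0.10). GRN, the progranulin gene, stood at 89.0, 91.0 and 94.1 CPM against 162, 156 and 153 CPM (-0.78 ± 0.05), and the granule tether ANXA11 (-0.84 ± 0.05) and SOD1 (-0.50 ± 0.04) were lower too. C9orf72 itself did not pass (0.01 ± 0.08). Of 20 stress granule proteins 11 were higher and 2 lower (5 lower within the set of 10), but the core proteins G3BP1 (0.01) and G3BP2 (-0.06) did not pass.

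Of 23 axonal and neuronal genes tested 13 were higher, 6 lower and 4 did not pass, and 8 of the 13 were past 2-fold, where 7.79% of all genes were higher past 2-fold. SNAP25, of the synaptic release machinery, stood at 9.78, 8.16 and 9.35 CPM against 1.26, 0.894 and 1.14 CPM (3.05 ± 0.17), and INA, an intermediate filament, at 103, 101 and 96.4 CPM against 26.1, 25.5 and 26.6 CPM (1.94 ± 0.08). STMN4, a microtubule regulator, had 507 counts with 102xPR and 3 with poly-adenylate, a ratio of 175 with an exact 95% interval of 59.5 to 850 for counting error only. Its relatives STMN1 (-0.66 ± 0.04) and STMN3 (-0.95 ± 0.06) were lower, and so were DPYSL2 and DPYSL3.

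Proteasome and autophagy genes did not move as 1 group. Of 41 proteasome subunits 18 were higher, 9 lower (5 within the set of 10 libraries) and 14 did not pass: among those that passed, subunits of the regulatory particle such as PSMC4 (0.55 ± 0.04), PSMC3 (0.51) and PSMD4 (0.44) were higher, and the activator genes PSME1 (-1.05 ± 0.09) and PSME2 (-0.48) were lower. Of 30 autophagy genes 14 were higher and 9 lower, with the transcription factor gene TFE3 at 132, 129 and 125 CPM against 58.7, 54.8 and 56.6 CPM (1.18 ± 0.05), its relative TFEB lower by 0.54 and the initiating kinase gene ULK1 lower by 0.60. Of the 25 genes of the actin and SRF list 16 were lower, none past 2-fold, and 3 were higher. The 3 were CNN1 (2.91), ACTA2 (2.30) and ZYX (0.22). Within the set of 10 libraries these differed by 2.72, 1.85 and 0.12. Of 18 interferon genes tested 7 were lower (38.9%) and 4 higher (22.2%), beside 34.9% and 34.3% of all genes, and the median was -0.06. BST2 (-2.04 ± 0.43) and IFIT1 (-1.35 ± 0.12) were lower and ISG15 (0.75 ± 0.15) was higher. Other listed genes, such as MX1, OAS1, IRF7 and IFIT2, did not pass the filter on low counts.

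Markers of other cell types moved with the groups at very low levels. Summed over 8 mature kidney markers the 102xPR libraries held 1.94 to 2.91 CPM and the poly-adenylate libraries 0.377 to 0.766 CPM, mostly AQP1, while UMOD had no count in any of the 6. Summed over 8 hepatocyte markers they held 2.30 to 3.11 and 0.393 to 0.706 CPM, mostly ALB and TF, while FGA and SERPINA1 had no count. The sums over blood cell markers (3.47 to 3.83 against 4.33 to 4.54 CPM) and over mesenchymal and endothelial markers (15.2 to 16.1 against 27.6 to 30.7 CPM) were lower with 102xPR. CD3E had no count, and the mesenchymal sum was mostly COL1A1 (290, 312 and 259 counts against 502, 491 and 477). The part of these markers in the differences above was not tested.

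Base composition moved with the difference. Among genes sorted by the GC content of their longest transcript in GENCODE 29, the median log2 fold change was 0.11 in the fifth of genes with the lowest GC, then 0.07, 0.03 and -0.10, and -0.28 in the fifth with the highest. The median in 102xPR replicate 3, which shares its library set with the poly-adenylate libraries, ran from 0.10 to -0.23. In the uninduced comparison the medians ran the other way, from -0.04 to 0.06. By length the medians ran from -0.08 for the shortest to 0.03 for the longest transcripts. The part of base composition in the differences above was not tested. By RefSeq class, of 1033 long noncoding RNAs tested 312 were higher (30.2%) and 196 lower (19.0%), and of 363 transcribed pseudogenes 136 were higher (37.5%) and 55 lower (15.2%), beside 34.3% and 34.9% of all genes. Of 64 small nucleolar RNAs 7 were higher and 13 lower, with a median of -0.39, and of 18 microRNA genes 3 were higher and 3 lower.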

How the data were processed

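RNA-seq counts of 18 HEK293T libraries were used, 6 of them for the main comparison. The authors deposited 1 table of raw counts per gene, whole numbers without normalization; HISAT2 2.1.0 and featureCounts are named in the submitters' processing notes, beside bcl2fastq 2.20.0.422 and cutadapt 3.4, and the build is hg38. Which annotation and strand setting were used is not given in the sources used here. The deposited tables of the authors' own comparisons were not used. Of 28394 genes, 550 had no symbol (0.0410% of counts).

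A filter on low counts (filterByExpr, minimum count 10) and TMM scaling came first. The quasi-likelihood model of edgeR 4.0.16 (R 4.3.3) then had a term for each group and used all 18 libraries, with Benjamini-Hochberg adjustment over all 15447 genes and a threshold of 0.05. CPM values of single genes use the same factors. The fit was tested on simulated data with genes changed by known folds. The median SE of a difference was 0.08, and the common biological coefficient of variation 5.75%. Libraries held 15020739 to 27331102 counts, which sets the counting error; without molecular identifiers, reads can be copies of 1 molecule, so counting intervals cover counting error only.

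The comparison, its gene lists and its tests were chosen with earlier results of these data known. Lists are described by counts and medians beside all genes, with no test of the list. Named genes were the 12 largest differences each way (passed, mean log2 CPM of at least 1, groups not overlapping), up to 4 members each way with the smallest adjusted p of each list, all quality control genes, and 5 genes each way that passed in the induced and uninduced comparison alike or in the opposite direction in the poly-adenylate response. Other list members, such as whole role groups of the ATF4 list, were named after their values were seen. A few of the genes selected are not reported here. Alternatives were DESeq2 1.42.0, other scalings and filters, only the libraries compared, a replicate block, each library left out, and the library sets (a covariate, or only the larger set); some checks of the ATF4 list were added after seeing the data. Coordinates, biotypes and promoters are from RefSeq tables (GRCh38.p14), and GC content and length, for 95.9% of genes, from GENCODE 29.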

Additional observations from a re-analysis of the deposited data

Results flagged for a closer look

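The response to induction differed between the 102xPR and the poly-adenylate line at 9022 genes, by the test of the difference of the responses itself (edgeR quasi-likelihood, Benjamini-Hochberg adjusted p under 0.05). The 8 genes named here for opposite responses all passed that test. The 102xPR response exceeded the poly-adenylate response by 2.44 on the log2 scale at CTH, 1.93 at SESN2, 1.06 at HOXA4 and 0.91 at TXNIP. It lay below it at ENDOG (-1.97), DUSP9 (-1.79), SDF2L1 (-1.78) and MAFK (-1.50). These 8 were chosen for their opposite responses, so the sizes describe them and are no independent evidence.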

How the results depend on the processing

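No named gene that passed the threshold turned its direction in any alternative that was run. Among named genes that did not pass, ANKZF1, NPLOC4, RACK1 and KLHDC10 changed sign in some, with values near 0 (ANKZF1 0.06, and -0.12 within the larger set). The balance of calls turned in several alternatives. In the induced comparison there were 5476 higher and 5222 lower genes with DESeq2-style size factors and 5521 and 5126 with library totals. It also turned with no filter (5453 and 5443), a minimum count of 50 (4861 and 4741), only the libraries compared (5357 and 5313) and DESeq2 (5268 and 5056). The uninduced comparison gave 485 and 573 with library totals, and its balance turned as well when some single libraries were left out. The difference of responses gave 4540 and 4484, then 4718 and 4260, under the 2 scalings, and 4288 and 4084 with a minimum count of 50. In the induced comparison the higher count past 2-fold was 705 with a minimum count of 50, which tests fewer genes. In the uninduced comparison the higher and lower counts were 363 and 290 with only the libraries compared, 364 and 348 in the fit with a term for the library set, and 231 and 206 within the larger set, and DESeq2 called 1030 higher. The difference of responses held 2957 higher genes within the larger set. The causes were not tested. With each library left out in turn, the induced comparison gave 5000 to 5214 higher and 5042 to 5219 lower genes, and past 2-fold 1204 to 1293 and 813 to 945. The difference of responses gave 4113 to 4449 higher and 4274 to 4717 lower, and the uninduced comparison 150 to 1337 higher and 185 to 816 lower. Deviations of same-numbered libraries correlated at 0.07, 0.01 and -0.02 when induced, and at 0.18, 0.08 and 0.08 when uninduced, where each number correlated best with itself, a hint from the data and not the design. Not every pair was over 0.1, so the numbers were not taken to pair the libraries; with a replicate block 5401 genes were higher and 5485 lower in the induced comparison, 883 and 731 uninduced, and 4588 and 4710 in the difference of responses. Of 262 named genes, 238 kept their side of the threshold in every alternative. Low counts limit genes such as STMN4 and FGF21.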
